A study of Nothobranchius furzeri with 16 samples.

Results

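Prefoldin is a co-chaperone complex of the cytosol that catches newly made actin and tubulin chains on the tips of its coiled-coil arms and passes them to the chaperonin CCT (also called TRiC), in which they fold. Each complex is built from alpha-type subunits, VBP1 (also called prefoldin subunit 3) and PFDN5, and beta-type subunits, PFDN1, PFDN2, PFDN4 and PFDN6. Tubulin is a main building material of axons and dendrites, and in mice a missense mutation in Pfdn5 causes neurodegeneration.

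The 6 subunits were found as the rows of a brain RNA table whose symbol is VBP1 or begins with PFDN and a digit. They were 6 of 26739 rows, and each subunit had 1 row. All 6 passed the minimum for testing, a level of at least 1 TPM in at least 8 fish, as did 18529 rows in all. TPM, a transcript abundance, is scaled by transcript length and to the same total of 1000000 in every fish, so levels of different genes can be set side by side. The family was chosen by its values in the comparison of bortezomib with vehicle fish, in which PFDN2, PFDN4, PFDN5 and VBP1 were among the genes called. The values of all 6 in that comparison are therefore given here as a description, without a test.

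RNA came from whole brains, each of 1 adult turquoise killifish (the annual fish Nothobranchius furzeri) that was 12 to 14 weeks old, counted from hatching, at the time of treatment. The bortezomib group, 8 fish, received the proteasome inhibitor bortezomib at 500 µM, and the vehicle group, 8 fish, received 1% DMSO in salt solution. Both received 10 µl per g of body weight into the peritoneal cavity on days 0, 6, 12, 18 and 24, came from the same hatch, were allocated at random and held males and females. Treatment lasted 4 weeks in both groups. The sex of each fish is not given in the sources used here. Whole brains mix many cell types, and in such samples fewer cells of a type and less RNA per cell cannot be told apart.

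The relative depth recovered from low TPM values was 0.875 to 1.11 in bortezomib brains and 0.863 to 1.39 in vehicle brains; the absolute number of reads is unknown. The correlation between fish over all tested rows was 0.928 to 0.981. Markers of neurons, astrocytes and radial glia, oligodendrocytes and microglia were present in every brain. Summed pituitary hormone transcripts stood at 4233 and 3709 TPM in bortezomib fish 6 and 7 and at 6092 and 2141 TPM in vehicle fish 5 and 6, against 10.1 to 21.3 TPM in the other 12 fish. Values without these 4 pituitary fish are given beside the results.

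All 6 subunits had a higher mean TPM in bortezomib brains than in vehicle brains. The ratio of means was highest for PFDN2, 1.45, then for PFDN5, 1.31, followed by VBP1, 1.22, PFDN4, 1.21, PFDN1, 1.15, and PFDN6, 1.12. Summed over the family, prefoldin transcripts stood at 705 ± 56.7 TPM in bortezomib brains and 571 ± 43.9 TPM in vehicle brains (SD, n = 8 each), a ratio of 1.24. The lowest bortezomib brains had 660 TPM in sum and the highest vehicle fish 613 TPM, so the groups did not overlap. In the fit over the whole table by limma on log2(TPM + 1), at a p under 0.05 after Benjamini-Hochberg adjustment, 4.86% of tested rows were called, 3.61% as higher and 1.25% as lower. Of the 6 prefoldin rows 4 were among those called higher; the family was chosen for that reason and nothing is read from the count. Of the 6 rows, 1 was called after each of 3 other scalings between fish, and 0 were called without the 4 fish with pituitary transcripts, where 6 fish remained in each group.

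**Figure D1:**
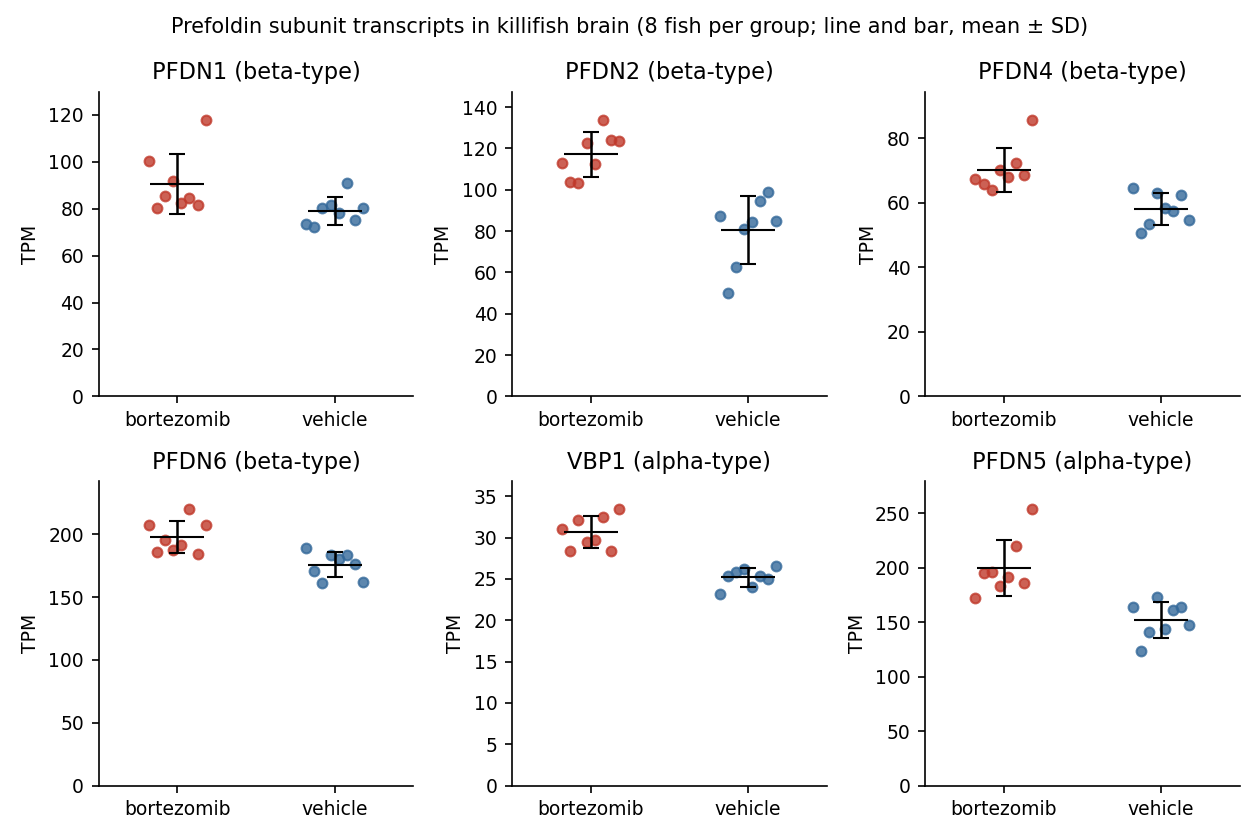
TPM of each prefoldin row in every fish, with bortezomib brains on the left and vehicle brains on the right of each panel; points are fish and bars are the mean with the SD (n = 8). PFDN2 and VBP1 show no overlap between the groups, and PFDN1 and PFDN6 show the most.

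Among the alpha-type subunits, VBP1, first described as a binding partner of the von Hippel-Lindau protein, was the least abundant of the 6 and the least variable. Its TPM had a lowest value of 28.4, a median of 30.4 and a highest value of 33.5 in bortezomib brains, against 23.2, 25.4 and 26.5 in vehicle brains. Every bortezomib brains lay above every vehicle brains, as in 1.08% of all tested rows. The log2 difference, bortezomib minus vehicle on the log2(TPM + 1) scale as for all log2 differences here, was 0.27 ± 0.05 (SE), and 0.27 ± 0.07 without the fish with pituitary transcripts.

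PFDN5, known in mammals also as a protein that binds MYC and represses its activity, was far more abundant. Its TPM had a lowest value of 172, a median of 193 and a highest value of 254 in bortezomib brains, against 123, 154 and 173 in vehicle brains. The log2 difference was 0.39 ± 0.08 (SE), and 7 of 8 bortezomib brains lay above the highest vehicle brains. Bortezomib fish 8 was the highest of all and vehicle fish 2 the lowest.

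Among the beta-type subunits, PFDN2 had the largest difference between the groups and the widest spread between vehicle fish. Its TPM had a lowest value of 103, a median of 118 and a highest value of 134 in bortezomib brains, against 50.2, 84.8 and 98.8 in vehicle brains. The groups did not overlap, and the log2 difference of 0.56 ± 0.12 (SE) was the largest of the family. Vehicle fish 2 and 3, at 50.2 and 62.5 TPM, lay below the other vehicle brains, and without vehicle fish 2 the log2 difference was 0.47. Without the fish with pituitary transcripts it was 0.57 ± 0.14.

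PFDN4, the beta-type subunit of lowest level, had TPM values from 63.9 through a median of 68.2 up to 85.7 in bortezomib brains, against 50.7, 58.1 and 64.6 in vehicle brains. The log2 difference was 0.27 ± 0.07 (SE), and 7 of 8 bortezomib brains lay above the highest vehicle brains. The 85.7 TPM belonged to bortezomib fish 8, and the next bortezomib brains had 72.3 TPM.

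PFDN1 and PFDN6 were the members with the most overlap between the groups. PFDN1, whose loss in mice is known to disturb the cytoskeleton, had a lowest TPM of 80.4, a median of 85.0 and a highest of 118 in bortezomib brains, against 72.1, 79.2 and 90.9 in vehicle brains. Its log2 difference was 0.19 ± 0.08 (SE), with 3 of 8 bortezomib brains above the highest vehicle brains, and it was 0.13 without bortezomib fish 8, which held the highest value. PFDN6, the most abundant beta-type subunit, had 185, 193 and 220.04 TPM as lowest, median and highest values in bortezomib brains, against 161, 178 and 189 TPM in vehicle brains. Its log2 difference was 0.17 ± 0.05 (SE), with 5 of 8 bortezomib brains above the highest vehicle brains; after quantile normalization of the fish it was 0.069. PFDN4, at 0.27, and PFDN6, at 0.17, were the rows just inside and just outside the call in the fit over the whole table. Without the fish with pituitary transcripts the log2 differences were 0.25 ± 0.09 for PFDN1, 0.27 ± 0.09 for PFDN4, 0.17 ± 0.06 for PFDN6 and 0.38 ± 0.10 for PFDN5.

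**Figure D2:**
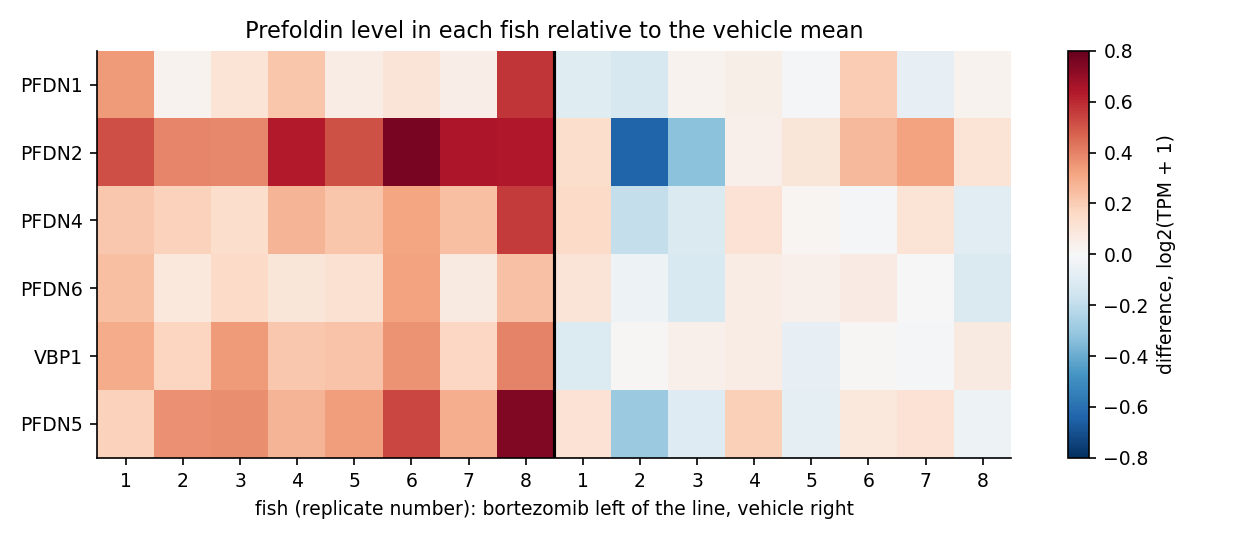
Difference of log2(TPM + 1) in each fish from the vehicle mean of log2(TPM + 1), for the 6 prefoldin rows, with bortezomib brains first and vehicle brains after them. All values of bortezomib brains are above 0, from 0.03 to 0.76, and vehicle fish 2 holds the lowest value, -0.64 for PFDN2.

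The 6 rows were not at equal levels in either group, although the assembled complex holds fixed numbers of each subunit. In bortezomib brains, PFDN5 and PFDN6 were the most abundant and could not be placed in order, since PFDN5 was the higher in 4 of 8 fish. PFDN2, PFDN1, PFDN4 and VBP1 followed, each above the next in 8 of 8 fish. In vehicle brains, PFDN6 exceeded PFDN5 in 8 of 8 fish, and PFDN2 and PFDN1 could not be placed in order, with PFDN2 the higher in 5 of 8 fish; PFDN4 and VBP1 were again the lowest.

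The shares of the members in the family differed most for PFDN6 and PFDN2. PFDN2 made up 16.6 ± 1.25% of the summed prefoldin TPM in bortezomib brains and 14.0 ± 2.07% in vehicle brains (SD, n = 8 each). PFDN6 made up 28.0 ± 1.42% in bortezomib brains and 30.9 ± 1.80% in vehicle brains, and PFDN5 28.2 ± 1.85% and 26.6 ± 1.13%. PFDN4 made up 9.95 ± 0.36% in bortezomib brains and 10.2 ± 0.40% in vehicle brains, and VBP1 4.35 ± 0.20% and 4.44 ± 0.45%. Summed alpha-type TPM stood at 230 ± 27.3 in bortezomib brains and 177 ± 16.2 in vehicle brains, a ratio of 1.30, and summed beta-type TPM at 475 ± 33.8 and 393 ± 29.4, a ratio of 1.21. PFDN6 stood at 6.45 ± 0.23 times the TPM of VBP1 in bortezomib brains and 7.0 ± 0.66 times in vehicle brains. These shares and ratios come from the same values as the comparison that led to the family and are not tested.

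The spread between fish of a group also differed among the subunits. The coefficient of variation of VBP1 was 6.34% in bortezomib brains and 4.40% in vehicle brains. Among the 500 tested rows of most similar TPM, 6.6% varied less than VBP1 between bortezomib brains and 0.6% between vehicle brains. PFDN6 varied by 6.47% in bortezomib brains and 5.80% in vehicle brains, and 16% and 4.2% of similar rows varied less. PFDN2 varied by 9.22% in bortezomib brains and 20.2% in vehicle brains, and 29.6% and 78.2% of similar rows varied less. VBP1 was among the called rows by which the family was chosen, and a small spread favours a call. Bortezomib fish 8 was the highest of its group in 4 of the 6 rows, and vehicle fish 2 was the lowest of its group in 4 of 6.

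Other sums in the same fish were set beside the family, and their relation to it was not computed. Summed TPM of 78 cytosolic ribosomal protein rows, a list made after values had been seen, was 236031 in bortezomib fish 8 and 194783 in the next bortezomib brains, with a group range of 162413 to 236031 in bortezomib brains and 184526 to 237808 in vehicle brains. Summed neuronal markers (16 rows) stood at 4394 to 5090 TPM in bortezomib brains and 3101 to 4296 TPM in vehicle brains. These sums did not overlap, and the ratio of means was 1.23. Single rows with every bortezomib fish above every vehicle fish made up 1.08% of all tested rows. The SNAP25 and STMN2 rows had the highest means, 551 to 1264 TPM, and weigh most in the sum. Log2 differences of the 16 rows had a median of 0.30 and ran up to 0.88, for GAD2. Only SYT1B and the more abundant GAD1B row lay below 0, both at -0.22. Of the 16 rows, SLC17A7 (2 OF 2) and SYT1B had means of 0.906 to 2.21 TPM and the others means of 28.1 TPM or more. In limma 1 of the 16 rows was called higher and 0 lower, beside 3.61% and 1.25% of all tested rows. The called row was SNAP25 (2 OF 2), with a log2 difference of 0.58 (limma adjusted p = 0.00798). GAD2 was not called (limma adjusted p = 0.0654). Summed oligodendrocyte markers (8 rows) stood at 5864 to 11010 TPM in bortezomib brains and 7770 to 14142 TPM in vehicle brains; 1 of these rows was called, MAG, and it was higher, at 35.4 TPM in bortezomib brains and 21.4 TPM in vehicle brains. The part of neurons, oligodendrocytes or ribosomal protein transcripts in the prefoldin values was not tested.

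The members were next related to one another within each group, which the choice of the family did not use. In bortezomib brains all 15 pairs of subunits were positively correlated on the log2(TPM + 1) scale, with a median Pearson r of 0.49 and a range of 0.26 to 0.84 (n = 8 fish). That uniform sign rested on a few fish: without the 2 fish farthest from the median of 1 row of each pair, the later in the order PFDN1, PFDN2, PFDN4, PFDN6, VBP1 and PFDN5, 7 of the 15 pairs were negative, with r from -0.86 to 0.95 over the 15. In vehicle fish 10 pairs were positive and 5 negative, with a median of 0.39 and a range of -0.65 to 0.90 (n = 8 fish). Of the 30 relations, 0 passed an adjusted p under 0.05 in two-sided exact permutation tests over all pairings of the 8 fish; 6 had an unadjusted p under 0.05 by Pearson's r and 4 by Spearman's rho. Pairs share their fish and the fixed TPM total, and after median-of-ratios scaling of the fish 15 relations passed and all 15 vehicle pairs were positive.

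**Figure D3:**
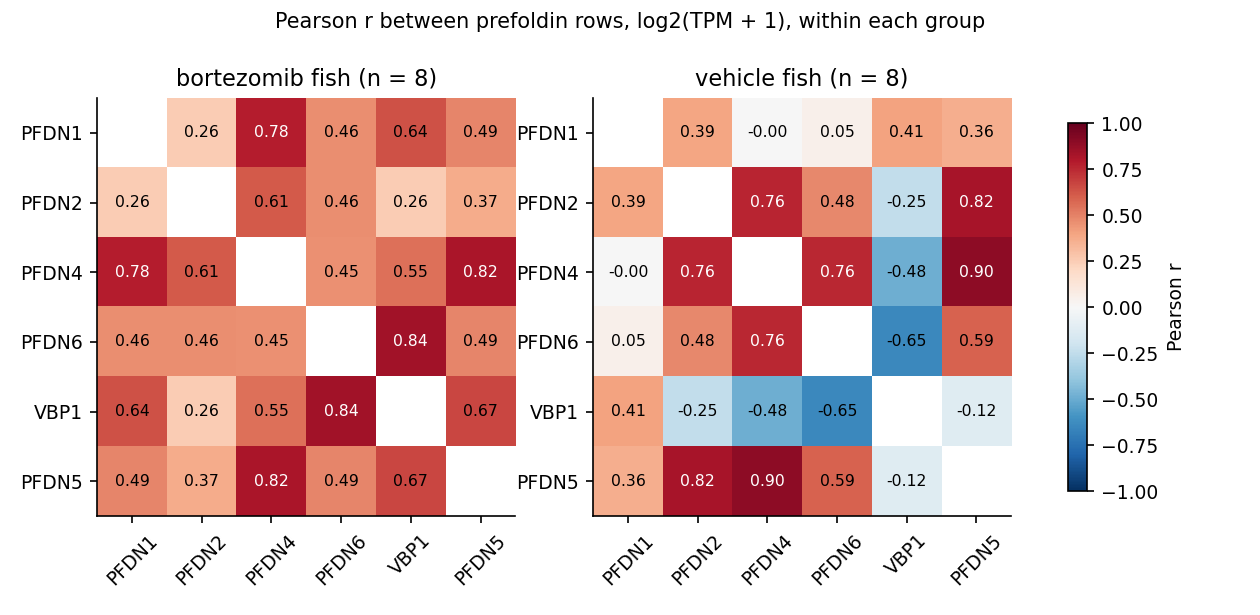
Pearson r between each pair of prefoldin rows on the log2(TPM + 1) scale, within bortezomib brains on the left and vehicle brains on the right (n = 8 each). All 15 pairs are positive in bortezomib brains, 7 of which turn negative without the 2 farthest fish, and PFDN6 with VBP1 is 0.84 there and -0.65 in vehicle brains.

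The closest pair in vehicle brains was PFDN4 with PFDN5, at r = 0.90 and rho = 0.857 (exact permutation p = 0.00293 and 0.0107, adjusted 0.0878 and 0.107, n = 8), and r was 0.80 without vehicle fish 2 and 4, those farthest from the median. It passed without vehicle fish 5 (r = 0.92, adjusted p = 0.0357 by the exact permutation test). In bortezomib brains the same pair had r = 0.82 and rho = 0.31 (exact permutation p = 0.0314 and 0.462, adjusted p = 0.176 and 0.729, n = 8). That value rested on bortezomib fish 8: without it r was 0.32, and without bortezomib fish 8 and 6 it was -0.53. PFDN2 with PFDN5 had r = 0.82 and rho = 0.62 in vehicle brains (exact permutation p = 0.0129 and 0.115, adjusted p = 0.132 and 0.397, n = 8), and r was 0.56 without vehicle fish 2 and 0.77 without vehicle fish 2 and 4. It passed without vehicle fish 4 (r = 0.91, adjusted p = 0.0298 by the exact permutation test).

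PFDN2 with PFDN4, both beta-type, had r = 0.61 and rho = 0.86 in bortezomib brains (exact permutation p = 0.0942 and 0.0107, adjusted p = 0.257 and 0.107, n = 8). Without bortezomib fish 8 alone r was 0.95 and passed (adjusted p = 0.0439 by the exact permutation test), without bortezomib fish 3 alone it was 0.51, and without both it was 0.95. In vehicle brains r was 0.76. PFDN6 with VBP1 had r = 0.84 and rho = 0.88 in bortezomib brains (exact permutation p = 0.0132 and 0.00724, adjusted p = 0.132 and 0.107, n = 8), against r = -0.65 and rho = -0.60 in vehicle brains (exact permutation p = 0.0815 and 0.132, adjusted p = 0.249 and 0.397, n = 8). Without the 2 farthest fish of each group r was 0.77 and -0.40. The difference between the groups in this relation was not tested, and after median-of-ratios scaling the vehicle value was 0.30. Without the fish with pituitary transcripts, PFDN6 with VBP1 had r = 0.82 in bortezomib brains and -0.68 in vehicle brains, and PFDN4 with PFDN5 had 0.83 and 0.95 (6 fish per group).

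Tubulin is the prefoldin client with the closest tie to neurons, and 14 TUBA (alpha-tubulin) and 4 TUBB (beta-tubulin) rows carried its symbols. Of these 18 rows 13 were tested, and 2 rose, 0 fell and 11 did not pass. Among all tested rows 3.61% were called higher and 1.25% lower. The list was chosen with earlier results of these data known, so its counts and p-values are given as a description. TUBA1A, a main alpha-tubulin of developing neurons in mammals, had 409 ± 68.0 TPM in bortezomib brains and 274 ± 26.8 TPM in vehicle brains (SD, n = 8 each), without overlap, and its log2 difference was 0.57 ± 0.09 (SE; limma adjusted p = 0.0016). TUBA8L3, a low alpha-tubulin row that shares its symbol with other rows, had 15.5 ± 1.74 TPM in bortezomib brains and 12.1 ± 1.51 TPM in vehicle brains (log2 difference 0.34 ± 0.09, limma adjusted p = 0.0428). That call was lost without any of 11 fish (adjusted p up to 0.0882), after each other scaling and without the fish with pituitary transcripts, where the call of TUBA1A held. A more abundant row also named TUBA8L3 had 86.4 ± 10.6 TPM in bortezomib brains and 86.8 ± 8.80 TPM in vehicle brains. It was not called (log2 difference -0.0096, limma adjusted p = 0.957).

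The most abundant tubulin row was one of the pair named TUBA1C, with 764 ± 71.9 TPM in bortezomib brains and 754 ± 87.3 TPM in vehicle brains. The other TUBA1C row had 511 ± 58.5 and 427 ± 59.1 TPM (log2 difference 0.26 ± 0.09, limma adjusted p = 0.0991), and TUBB5 404 ± 62.4 and 330 ± 44.3 TPM (0.29 ± 0.10, limma adjusted p = 0.0997). TUBA8L4 stood at 327 ± 36.1 TPM in bortezomib brains and 333 ± 22.3 TPM in vehicle brains. Rows of near-identical tubulins may have shared reads, so the split between them is uncertain. The median log2 difference over the 13 tested rows was -0.0096, against 0.035 over all tested rows. TUBA4A (2 OF 2), TUBA8L2, TUBA8L, TUBB6 and TUBB1 had means of only 1.39 to 5.96 TPM. Their log2 differences were all below 0, from -0.38 to -0.03, and none was called. The prefoldin median was 0.27, but that family was chosen by this comparison, so nothing is read from the contrast with it.

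Summed over rows, TUBA transcripts had a lowest value of 1881, a median of 2112 and a highest value of 2447 TPM in bortezomib brains, against 1591, 1900.3 and 2067 TPM in vehicle brains. Summed TUBB transcripts had 407, 484 and 617 TPM in bortezomib brains, against 361, 414 and 468 TPM in vehicle brains. Both sums overlapped between the groups, with ratios of means of 1.12 and 1.17. Summed prefoldin had a ratio of 1.24, but the family was chosen by this comparison and nothing is read from the difference.

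Within a group, no relation of prefoldin to tubulin passed the adjusted test. Of 24 relations of a prefoldin row to summed TUBA or TUBB, 18 were negative, r ran from -0.86 to 0.40, and 0 passed an adjusted p under 0.05 in two-sided exact permutation tests, with 1 at an unadjusted p under 0.05 by either measure. That 1 was PFDN2 with summed TUBA in bortezomib brains, at r = -0.86 and rho = -0.857 (exact permutation p = 0.00774 and 0.0107, adjusted p = 0.186 and 0.257, n = 8). Without bortezomib fish 3 and 7, the highest and lowest in summed TUBA, r was -0.87. In vehicle brains the same relation had r = -0.52 and rho = -0.43 (exact permutation p = 0.187 and 0.299, n = 8). Other relations also moved without the 2 fish farthest in summed tubulin. With TUBA in bortezomib brains, r went from -0.30 to -0.87 for PFDN6 and from 0.06 to -0.73 for VBP1. For PFDN5 it went from -0.36 to -0.91 with TUBA in vehicle brains and from 0.20 to 0.75 with TUBB in bortezomib brains.

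The PFDN2 relation depended on the scaling between fish. After median-of-ratios scaling r was 0.017, and with that scaling but without bortezomib fish 8, a choice made after seeing the data, it was -0.64. Bortezomib fish 8 had the lowest scaling factor, 0.864, against 0.930 to 1.12 in the other fish. Without the fish with pituitary transcripts r was -0.79. After quantile normalization r was -0.93 (adjusted p = 0.0518 by the exact permutation test). PFDN2 with summed TUBB had r = -0.64 in bortezomib brains and -0.70 in vehicle brains (exact permutation p = 0.0811 and 0.0537, n = 8 each), and the value in bortezomib brains was -0.077 without bortezomib fish 3 and 6.

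**Figure D4:**
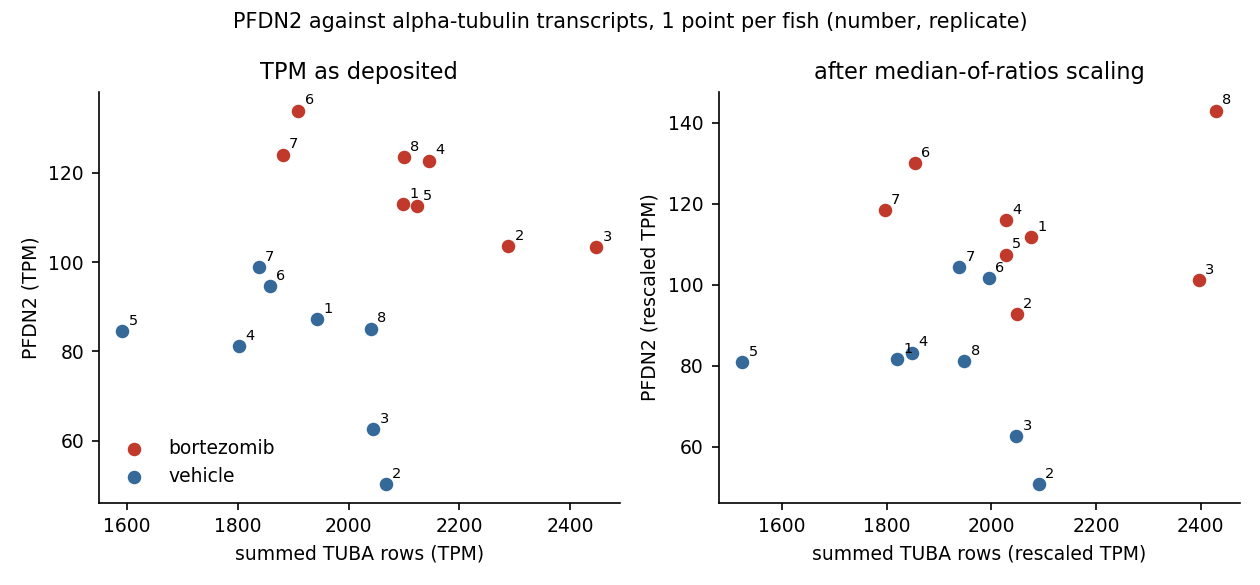
PFDN2 TPM against summed TUBA TPM in each fish, as deposited and after median-of-ratios scaling; points are fish, marked by group (n = 8 each). As deposited, r is -0.86 in bortezomib brains and -0.52 in vehicle brains, and after scaling bortezomib fish 8 moves to the upper right and r in bortezomib brains is 0.017.

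Chaperonin CCT receives the chains that prefoldin carries. Of 8 CCT rows tested, 3 rose, 0 fell and 5 did not pass. Over all tested rows 3.61% were called higher and 1.25% lower. The CCT list and the other lists of related genes were also chosen with earlier results of these data known. Their counts and p-values are given as a description. The median log2 difference of the CCT rows was 0.098. They include a low CCT4 row, with means of 1.36 TPM in bortezomib brains and 1.41 TPM in vehicle brains. CCT6A had 189 ± 15.8 TPM in bortezomib brains and 144 ± 17.7 TPM in vehicle brains (log2 difference 0.39 ± 0.08, limma adjusted p = 0.0072). CCT3 had 312 ± 26.5 and 257 ± 28.4 TPM (0.29 ± 0.07, limma adjusted p = 0.033), and CCT5 307 ± 17.3 and 266 ± 22.9 TPM (0.20 ± 0.06, limma adjusted p = 0.048).

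The CCT6A call held without each fish, without the 4 pituitary fish (adjusted p = 0.047) and after each other scaling. The CCT3 call was lost without any of 7 fish (adjusted p up to 0.0693), the CCT5 call without any of 14 (up to 0.0961), and both after each other scaling and without the fish with pituitary transcripts. TCP1, the first CCT subunit described, stood at 273 ± 15.1 TPM in bortezomib brains and 270 ± 26.2 TPM in vehicle brains. CCT7 (log2 difference -0.10 ± 0.09) and the abundant CCT4 row (-0.07 ± 0.06) lay below 0 and did not pass, and CCT8 (0.17 ± 0.06) did not pass either. CCT2 was searched for, but no row carried that symbol, and the 8 CCT rows include 2 named CCT4.

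Proteins that work with the chaperonin or bind prefoldin subunits moved both ways: of 8 rows, 2 rose, 1 fell and 5 did not pass. Calls among all tested rows were 3.61% higher and 1.25% lower, and this list too was chosen with earlier results known. TXNDC9, a phosducin-like protein that binds CCT, had 103 ± 10.7 TPM in bortezomib brains and 74.8 ± 15.2 TPM in vehicle brains (log2 difference 0.47 ± 0.11, limma adjusted p = 0.0258; up to 0.0572 without bortezomib fish 4 or 6 or vehicle fish 7). PDCL, which helps CCT fold G-protein beta subunits, had 238 ± 11.9 and 201 ± 15.7 TPM (0.25 ± 0.05, limma adjusted p = 0.0154), a call lost after each other scaling and without the fish with pituitary transcripts. MYCA, a fish copy of MYC, the partner of PFDN5 in mammals, fell to 15.5 ± 2.90 TPM in bortezomib brains, against 21.7 ± 2.49 TPM in vehicle brains (-0.48 ± 0.12, limma adjusted p = 0.0248). Every bortezomib brains lay below every vehicle brains for MYCA, as in 0.221% of all tested rows. The calls of TXNDC9 and MYCA held without the 4 pituitary fish (adjusted p = 0.0484 and 0.0481). VHL, the partner of VBP1, stood at 34.8 ± 4.19 TPM in bortezomib brains and 33.1 ± 4.12 TPM in vehicle brains and did not pass, nor did either MYCB row.

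The tubulin cofactors take tubulin from CCT and build the alpha-beta dimer. The list held 10 rows: the cofactors TBCA, TBCB, TBCD and TBCE, their partner ARL2, and the related TBCELA, TBCELB, TBCCD1 and ARL2BP rows. The role above is stated for the cofactors only. Of the 10 rows, 2 rose, 0 fell and 8 did not pass, with a median log2 difference of 0.21. The shares called over all tested rows were 3.61% higher and 1.25% lower, and this list too was chosen with earlier results known. TBCA, which holds beta-tubulin after it leaves CCT, had 227 ± 14.9 TPM in bortezomib brains and 189 ± 16.9 TPM in vehicle brains (log2 difference 0.27 ± 0.06, limma adjusted p = 0.0184). ARL2, a small GTPase that works with the cofactors TBCD and TBCE, had 33.7 ± 4.26 and 25.8 ± 1.78 TPM, without overlap (0.37 ± 0.07, limma adjusted p = 0.0087). Both calls were lost without the fish with pituitary transcripts, and that of TBCA also after each other scaling. One of the TBCELA rows had 22.1 ± 4.39 TPM in bortezomib brains and 15.5 ± 4.09 TPM in vehicle brains and did not pass. TBCELB had 32.1 ± 5.24 TPM in bortezomib brains and 23.1 ± 6.64 TPM in vehicle brains (0.49 ± 0.16, limma adjusted p = 0.0856, and 0.0403 without vehicle fish 6).

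The prefoldin-like proteins UXT, PDRG1 and URI1 belong to a related complex with the ATPases RUVBL1 and RUVBL2. Of 8 rows of this complex and its partners, limma called 0 in either direction; 2 had an unadjusted p under 0.05, both higher, as were 14.2% of all tested rows, and the median log2 difference was 0.092. UXT stood at 27.1 ± 2.04 TPM in bortezomib brains and 26.7 ± 1.82 TPM in vehicle brains, and PDRG1 at 52.2 ± 4.99 and 49.4 ± 3.62 TPM. RUVBL2 (log2 difference 0.17 ± 0.07) and POLR2E (2 OF 2) (0.27 ± 0.11) were the rows under the unadjusted threshold.

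Actin is the other main client. Of 6 rows, 4 were tested and limma called 0, with 1 at an unadjusted p under 0.05, lower, as were 6.94% of all tested rows. The median log2 difference of the 4 was -0.26. ACTB (1 OF 2), the most abundant, had 4024 ± 426 TPM in bortezomib brains and 4723 ± 595 TPM in vehicle brains (log2 difference -0.23 ± 0.08, limma adjusted p = 0.116); it passed without bortezomib fish 3 or vehicle fish 5 (0.0418 and 0.0419). ACTG1 stood at 251 ± 42.3 TPM in bortezomib brains and 247 ± 24.2 TPM in vehicle brains, and ACTA2, the smooth muscle actin, at 38.5 ± 9.83 and 46.8 ± 9.57 TPM; neither passed.

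**Figure D5:**
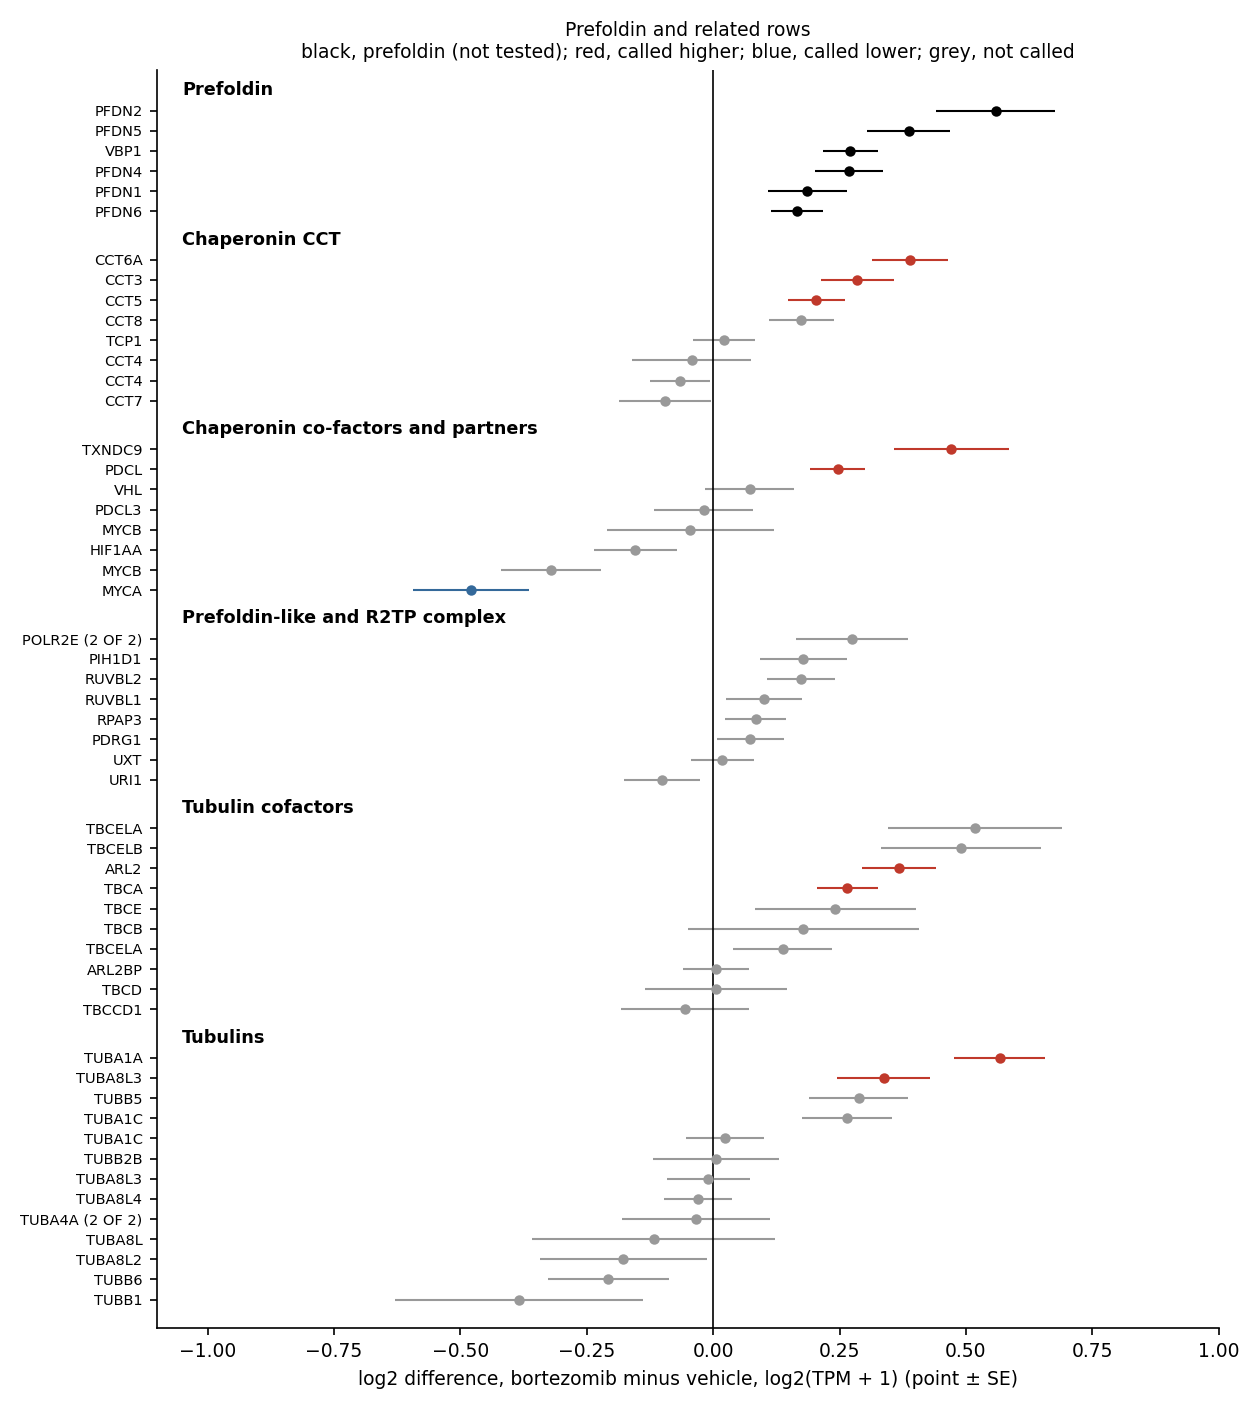
Log2 difference, bortezomib minus vehicle, on the log2(TPM + 1) scale for the 6 prefoldin rows and the rows of related lists; bars are standard errors, and rows that share a symbol appear under it more than once. The 6 prefoldin rows, a family chosen by this comparison, lie between 0.17 and 0.56. CCT and tubulin rows lie on both sides of 0.

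The rows that followed each subunit most closely from fish to fish were found by Pearson r of group-centred log2(TPM + 1) over the 16 fish, among 10021 rows with a mean of at least 10 TPM. For PFDN2 they were C5H9ORF78 (0.92), CHCHD6A (0.91) and EPB41B (0.91), and for PFDN4 they were SUB1B (0.91), C7H16ORF87 (0.89) and SCD (0.88). For PFDN5 they were CFL1, which encodes the actin-severing protein cofilin (0.89), CCDC124 (0.88) and EXOSC3 (0.87). PFDN1 was most like TAGLN (0.85), ACTA2 (0.82) and GBX (0.78), VBP1 most like IRAK1BP1 (0.84), MYL12.2 (0.77) and MRPL16 (0.77), and PFDN6 most like CU019652.1 (0.79), VPS45 (0.77) and ZCCHC10 (0.75). No row was named for more than 1 subunit, and a tested row outside the search had r = 0.80 with PFDN6. These values share fish and scaling between rows and describe likeness among these 16 brains. They were not computed again with single fish left out. Bortezomib fish 8, for example, held the highest bortezomib value of both PFDN1 (118 TPM) and ACTA2 (56.2 TPM).

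By the same measure, the median r with the 8 CCT rows was 0.45 for VBP1 and -0.46 for PFDN2, the highest and lowest of the 6 subunits, while the median with all tested rows was -0.25 to -0.079. With the 78 ribosomal protein rows the median r was 0.11 for PFDN2, the lowest, and 0.51 for PFDN1, the highest. For VBP1 the median with ribosomal protein rows was 0.45 too, the same as with the CCT rows, so its likeness was not particular to CCT.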

How the data were processed

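RNA was sequenced from 16 brains. The authors deposited 1 table of TPM values, and each of its 16 columns sums to 1000000, as read from the values. Per the submitters' processing notes, STAR and bcl2fastq 2.20.0.422 were used; counter, strand setting, genome build and annotation: not given in the sources used here. Symbols come from the table; rows that share a symbol may share reads. No table identifier matched the RefSeq gene table (0 matches), so no coordinates are given.

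The comparison used limma 3.58.1 in R 4.3.3, two-sided, with an intensity trend on log2(TPM + 1), which understates changes of low genes, over the 18529 rows that reached 1 TPM in 8 or more fish (8210 left out), Benjamini-Hochberg adjusted, threshold 0.05. Each fish is 1 replicate. TPM does not hold the number of reads, and intervals for counting error are therefore left out; the number of fish limits the precision. The 24 tubulin relations (16 were planned, for 4 rows) and the 30 among members were each adjusted within their family. Likeness named the 3 rows of highest r per subunit. Named rows were all subunits, the 5 most abundant and all called tubulins and the 3 most abundant actins; any row of the CCT, co-chaperone and cofactor lists could be named, and those given were chosen after their values were seen, as were rows outside these lists. Members and lists were chosen with earlier results of these data known. Alternatives were scaling, filters, pseudocounts, covariates, weights, a replicate block and leaving out fish. The scripts were tested on simulated data. Python 3.11.15 with pandas 2.3.3 was used for tables.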

Additional observations from a re-analysis of the deposited data

Results flagged for a closer look

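In 5 of 64 groups examined, the highest fish stood farther from the next than Dixon's 95% limit for 8 values allows; chance flags about 1 in 20 groups. PFDN4 had 85.7 TPM in bortezomib fish 8, and the next bortezomib fish had 72.3 TPM. Summed ribosomal protein transcripts also stood apart in bortezomib fish 8, at 236031 TPM against 194783 TPM in the next. TUBA1A had 553 TPM in bortezomib fish 3, against 435 TPM in the next, and ACTB (1 OF 2) had 5039 TPM in the same fish, against 4031 TPM. ARL2 had 44.0 TPM in bortezomib fish 1, against 33.7 TPM in the next. Without the fish concerned, the log2 difference of PFDN4 was 0.23, that of TUBA1A 0.50 and that of ARL2 0.31.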

How the results depend on the processing

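The log2 differences of all 6 subunits kept their direction under every alternative run. Leaving out 1 fish gave 0.13 to 0.22 for PFDN1, 0.47 to 0.60 for PFDN2, 0.23 to 0.29 for PFDN4, 0.14 to 0.18 for PFDN6, 0.25 to 0.29 for VBP1 and 0.34 to 0.42 for PFDN5; PFDN6 was 0.069 after quantile normalization. Rows called higher numbered 669 and lower 232; under median-of-ratios, upper-quartile and quantile scaling, 421, 455 and 563 were lower. With the main component of variation between fish as a covariate there were 1915 higher and 519 lower, with sample weights 1468 and 424, with the replicate block 375 and 116, and without the 4 pituitary fish 259 and 66. Leaving out 1 fish gave 369 (without bortezomib fish 6) to 890 (without bortezomib fish 8) higher and 116 to 269 lower.

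Prefoldin rows called higher numbered 1 under each other scaling, 2 with the block and 0 without the pituitary fish. They ranged from 0 to 5 over these and the remaining alternatives, and from 3 to 4 on leaving out 1 fish. The family was chosen for these calls, so nothing is read from the counts. CCT rows called higher numbered 1 under each other scaling, the block and without the pituitary fish, and 1 to 3 on leaving out 1 fish. Chaperonin partners called higher numbered 1 under the same settings (1 to 2 on leaving out 1 fish); those lower numbered 2 under each other scaling and that component, and 0 with the block. Tubulin cofactors called higher numbered 1 under each other scaling, 0 without the pituitary fish and 2 to 3 on leaving out 1 fish. The highest number under any alternative was 4 for CCT rows and 3 for tubulin cofactors. Tubulins called higher numbered 1 under each other scaling, no filter, the block and without the pituitary fish, 4 with that component, and 1 to 2 on leaving out 1 fish. In the related complex 1 row was called higher, and among actins 1 lower, with that component (0 to 1 actins on leaving out 1 fish); among the client list 1 was higher with sample weights (0 to 1 on leaving out 1 fish).

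Relations among members past the threshold numbered 15 after median-of-ratios scaling, 6 after quantile normalization and 0 to 2 on leaving out 1 fish. Signs were followed under the alternatives only for PFDN2 with summed tubulin and for PFDN4-PFDN5, PFDN2-PFDN5, PFDN2-PFDN4 and PFDN6-VBP1. Of these, PFDN2 with summed TUBA in bortezomib fish changed sign, to 0.017 after median-of-ratios scaling. PFDN2 with summed TUBB in bortezomib fish changed to 0.096 after that scaling and 0.028 with the mean log2 of tubulin rows. In vehicle fish PFDN2 with TUBB changed to 0.46 with that mean. PFDN6 with VBP1 in vehicle fish changed to 0.30 after median-of-ratios scaling. Of all 15 vehicle pairs, 10 were positive as deposited, 15 after median-of-ratios scaling and 12 after quantile normalization. The cause was not tested. The replicate numbers are not given as a shared litter or day: deviations of same-numbered fish correlated at -0.24 to 0.41, with 3 of 8 pairs over 0.1, and 1 of 16 fish correlated best with its own number.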

Other observations

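Genes for proteins that are prone to aggregate and that chaperones are known to act on, 10 rows, gave 0 calls in limma, with 4 rows at an unadjusted p under 0.05, all higher, as were 14.2% of all tested rows, and a median log2 difference of 0.13. TARDBP, an RNA-binding protein that aggregates in motor neuron disease, stood at 240 ± 40.6 TPM in bortezomib brains and 186 ± 46.9 TPM in vehicle brains (SD, n = 8 each). SNCGB, a synuclein, stood at 1252 ± 114 and 1051 ± 201 TPM, APPB, a copy of the amyloid precursor, at 330 ± 41.3 and 276 ± 43.6 TPM, and MAPT (2 OF 2), which encodes tau, at 186 ± 28.5 and 152 ± 20.7 TPM.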
